A study of Homo sapiens with 2 samples.

Results

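The Rhesus glycoproteins RHCG, RHBG and RHAG and the carbonic anhydrases CA2, CA5B, CA8, CA9, CA11, CA12 and CA13 were followed in an esophageal squamous cell carcinoma cell line with and without a transfected RHCG gene. These 10 genes were picked by name from the 40392 genes of the expression tables, and each had 1 row in both tables. The RHCG library came from KYSE30 cells stably transfected with a vector for human RHCG expression, and the mock library from KYSE30 cells stably transfected with pIRES2-EGFP. KYSE30 is an established cell line of the esophagus. The labels do not say whether the transfectants were single clones or pools, nor which promoter drove RHCG. There was 1 library per group, so no difference below has a replicate check or a p-value, and each compares these 2 libraries.

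Rhesus glycoproteins are membrane proteins that let ammonia or ammonium cross the cell membrane. Carbonic anhydrases interconvert carbon dioxide and bicarbonate with a proton, and so set how fast acid can be buffered on the side of the membrane where they sit. Ammonia binds a proton to become ammonium, which ties both families to the handling of acid by a cell. RHCG is found in the upper layers of normal esophageal epithelium and in the collecting duct of the kidney, RHBG in kidney and liver, and RHAG in red blood cells.

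RHCG was the only Rhesus glycoprotein and CA11 the only carbonic anhydrase above 0 in either library. RHCG (Entrez gene 51458, chromosome 15) was at 413 RPKM in the RHCG library and was listed at 0 in the mock library. RPKM are reads per kilobase of transcript, scaled to sequencing depth, and can be compared between genes. CA11 (Entrez gene 770, chromosome 19), which encodes a secreted carbonic anhydrase-related protein without catalytic activity, was listed at 0 in the RHCG library and at 1.57 RPKM in the mock library. The other 8 genes were listed at 0 in both libraries, so no ratio could be given for them. In bulk RNA, fewer cells with a transcript and less of it per cell cannot be told apart.

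**Figure D1:**
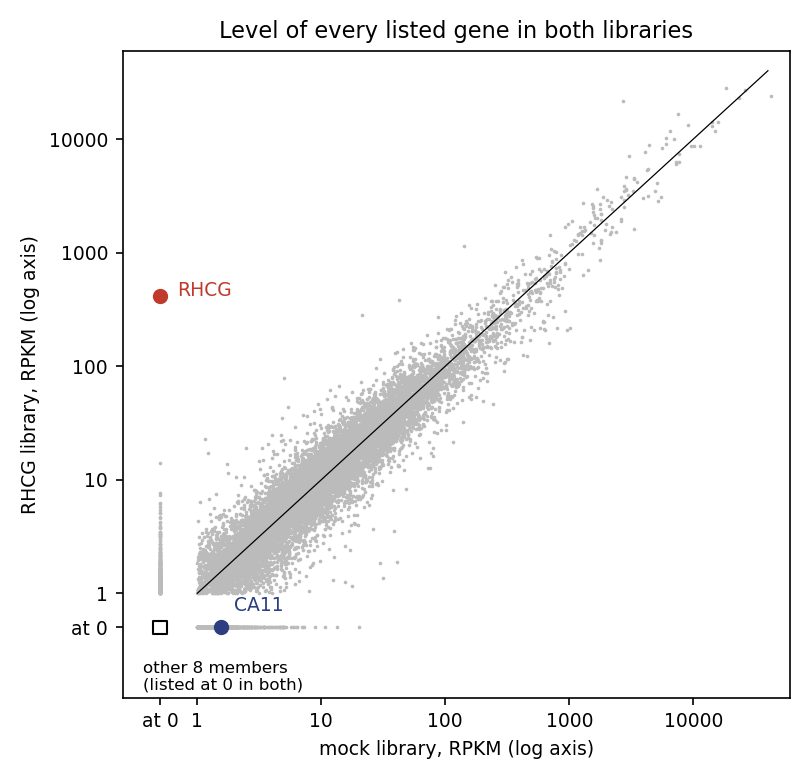
Level of each gene in the RHCG library (vertical axis) against the mock library (horizontal axis), in RPKM on log axes, with genes listed at 0 drawn on a strip at the edge; each grey point is 1 gene and the line marks equal levels. RHCG stands at 413 RPKM on the strip of genes at 0 in the mock library, CA11 at 1.57 RPKM on the strip of genes at 0 in the RHCG library, and the square stands for the 8 members at 0 in both.

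The deposited values stop at 1 RPKM, and a gene at 0 may have had 1 RPKM or less, or may not have been counted. The depth scaling of the values corresponded to about 22100000 reads in the RHCG library and about 18900000 in the mock library. On that scale RHCG, with 2607 exonic bases in GENCODE release 29, rested on about 23749 reads in the RHCG library. The approximate 95% exact Poisson interval of its level was 408 to 418 RPKM, which covers counting error only. A level of 1 RPKM would have stood for about 49.4 reads of RHCG in the mock library. For the long CA12 transcript (7313 exonic bases) it would have stood for about 161 reads in the RHCG library and 139 in the mock library, and for the short CA9 transcript (1670 bases) for about 36.9 reads in the RHCG library and 31.6 in the mock library. For a counted gene, a 0 therefore leaves room for more reads of a longer transcript, at the same limit of 1 RPKM.

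Among all 19158 protein-coding genes, 7725 (40.3%) were listed at 0 in both libraries, against 8 of the 10 members. Groups that nearly every cell uses were rarely at 0. None of 76 cytosolic ribosomal protein genes, 2 of 77 mitochondrial ribosomal protein genes, 0 of 37 proteasome subunit genes and 1 of 36 genes for subunits of respiratory complex I were at 0 in both libraries. Together these were 3 of 226 genes. Single genes that cells generally express, such as GLUL, were nevertheless at 0 in both libraries. Whether a member was left uncounted was not tested.

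For RHCG the difference between the libraries was beyond that of every other gene at 0 in the mock library. Of 363 genes listed in the RHCG library and not in the mock library, the median level was 1.32 RPKM in the RHCG library. After RHCG the highest were PRR18 at 14.1 RPKM, TSPAN7, a tetraspanin, at 7.58 RPKM, SYNE3, a nesprin of the nuclear envelope, at 7.28 RPKM, and BEX2 at 6.25 RPKM, all listed at 0 in the mock library. With only 2 libraries, these are the genes whose pattern is most like that of RHCG by presence in 1 library alone.

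With 1 RPKM added to each value and genes at 0 set to 1 RPKM, genes were called higher from a log2 ratio (RHCG library over mock library) of 1 upwards and lower from −1 downwards. Of the 10 members, RHCG was called higher and none was called lower. By the same rule 2.74% of 12857 measured genes were higher and 3.3% lower.

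RHCG belongs to solute carrier family 42, and its level was set beside those of the other transport genes. Among 382 genes of the solute carrier families, the 3 Rhesus glycoproteins included, 193 were listed in the RHCG library and RHCG ranked 1. SLC3A2, the heavy chain shared by several amino acid transporters, followed at 395 RPKM in the RHCG library and 210 RPKM in the mock library. SLC16A3, the lactate and proton exporter MCT4, was at 307 RPKM in the RHCG library and 470 RPKM in the mock library, where it ranked 1 of 197 listed genes. By RPKM, RHCG mRNA was thus at a level like that of the most abundant transporter mRNAs of these cells. Whether the length behind its RPKM matches the transcript made from the vector is not known here, and another length would change the level. The vector and the chromosomal gene share 1 value in the table, so their reads cannot be told apart.

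**Figure D2:**
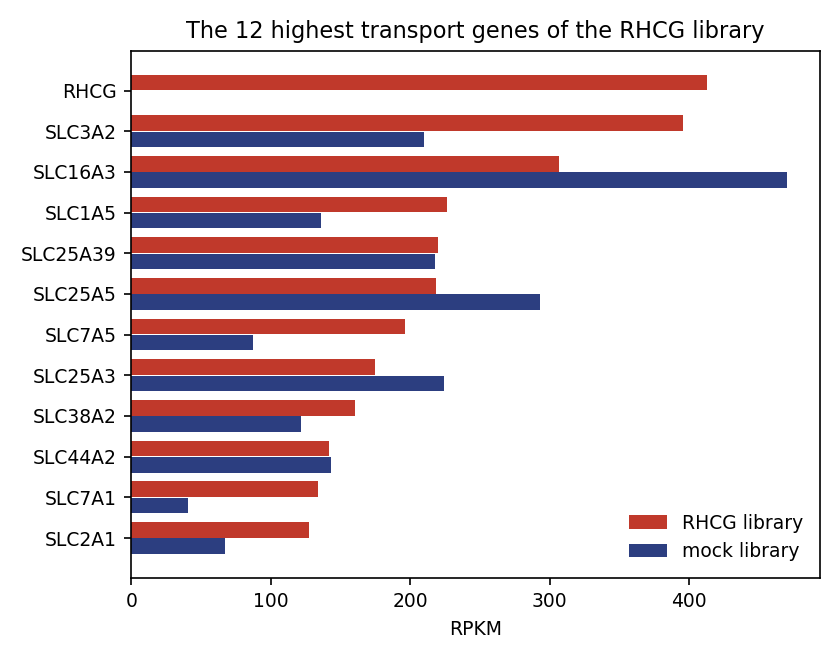
Levels in RPKM of the 12 highest transport genes of the RHCG library, with red bars for the RHCG library above blue bars for the mock library. RHCG is the longest red bar, at 413 RPKM, and has no blue bar because it is listed at 0 in the mock library.

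The chromosomal surroundings of RHCG showed no comparable difference. The nearest measured protein-coding genes on one side were POLG, the mitochondrial DNA polymerase, at 31.5 RPKM in the RHCG library and 29.1 RPKM in the mock library, FANCI, of the Fanconi DNA repair pathway, at 25.7 RPKM in the RHCG library and 32.4 RPKM in the mock library, and ABHD2, a lipase, at 16.2 RPKM in the RHCG library and 17 RPKM in the mock library. On the other side stood TICRR, which fires replication origins, at 3.68 RPKM in the RHCG library and 10.6 RPKM in the mock library, a log2 ratio of −1.32. KIF7, a kinesin of the cilium, was at 4.99 RPKM in the RHCG library and 6.29 RPKM in the mock library, and PEX11A, a peroxisomal protein, at 2.34 RPKM in the RHCG library and 2.43 RPKM in the mock library. The 50 measured neighbours, 25 on each side, had a median log2 ratio of 0.01, of which 2 were called higher and 2 lower, and none exceeded 1.03. With 10 neighbours on each side the median was −0.13.

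**Figure D3:**
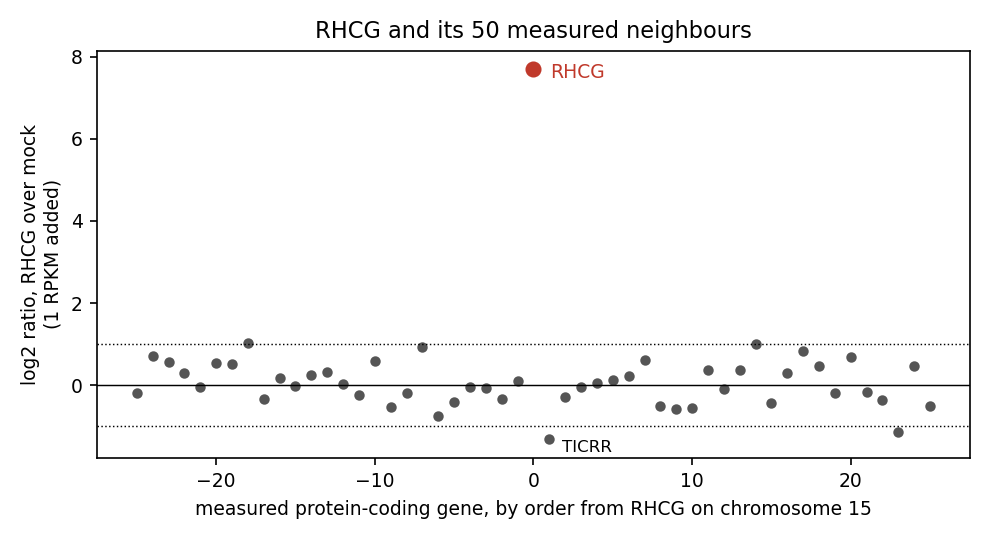
Log2 ratio of RHCG over mock, with 1 RPKM added, for RHCG (red) and the 50 measured protein-coding genes around it in their order on chromosome 15; dotted lines mark the 2-fold thresholds. The neighbours lie between −1.32, at TICRR, and 1.03.

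Both other Rhesus glycoproteins, RHBG (chromosome 1) and RHAG (chromosome 6), were listed at 0 in the RHCG library and in the mock library, and so were RHD and RHCE, the non-glycosylated Rh blood group proteins. Markers of the cells in which these genes are usually found were also at or near 0. Of 11 erythroid markers only TMCC2 was listed, at 0 in the RHCG library and 3.0 RPKM in the mock library, and the globin genes were at 0. None of 8 markers of renal intercalated cells was listed, and of 7 hepatocyte markers only CPS1 was, at 0 in the RHCG library and 1.63 RPKM in the mock library. Of 10 squamous keratinocyte markers 8 were listed, SFN the highest at 180 RPKM in the RHCG library and 254 RPKM in the mock library. The defining basal keratin KRT5 and the desmosomal PKP1 were at 0 in both libraries, KRT14 was at 4.21 RPKM in the RHCG library and 3.31 RPKM in the mock library, and TP63 at 14.4 RPKM in the RHCG library and 26.2 RPKM in the mock library. KRT13 and KRT6A were called lower in the RHCG library. Of the 8 listed markers, 5 had a log2 ratio below 0 and 3 above. DSG3 lay the other way, at 12.6 RPKM in the RHCG library and 7.01 RPKM in the mock library. The summed level of the 10 markers was 406 RPKM in the RHCG library and 778 RPKM in the mock library. KRT13 alone was at 164 RPKM in the RHCG library and 407 RPKM in the mock library. Simple epithelial keratins were far more abundant and went both ways. KRT8 was at 1680 RPKM in the RHCG library and 2197 RPKM in the mock library, KRT18 at 2194 RPKM in the RHCG library and 1810 RPKM in the mock library, and KRT19, which was called lower, at 855 RPKM in the RHCG library and 1766 RPKM in the mock library. These 3 keratins were the only listed genes of 8 columnar epithelium markers. The others, KRT20, MUC1, TFF1, CDX1 and ATP4A, were at 0 in both libraries. Of the other lists, 3 of 7 fibroblast markers and 1 of 6 leukocyte markers were listed. The part of these keratin differences in the RHCG value was not tested.

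The catalytic carbonic anhydrases were at 0 wherever in the cell their proteins work. CA2, the fast cytosolic enzyme, and CA13, another cytosolic form, belong to a cluster on chromosome 8 with CA1 and CA3, and all 4 were at 0 in both libraries. The nearest measured genes on the sides of this cluster were RBIS, at 3.81 RPKM in the RHCG library and 4.65 RPKM in the mock library, and WWP1, at 9.62 RPKM in the RHCG library and 8.66 RPKM in the mock library. CA5B, the mitochondrial enzyme encoded on the X chromosome, was at 0 in both libraries. Its neighbouring transcribed pseudogene CA5BP1 was listed at 5.24 RPKM in the RHCG library and 3.52 RPKM in the mock library, a log2 ratio of 0.47. Of 8555 stretches of 50 bases in CA5B transcripts, 185 (2.16%) also occurred in CA5BP1 and 1825 (21.3%), as the reverse complement, in INE2, an antisense gene listed at 0 in both libraries. CA8, an inactive relative of the enzymes that binds the inositol trisphosphate receptor, was at 0 in both libraries. Of all 15 carbonic anhydrase genes, only CA11 was above 0 in either library.

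CA11 lay near the lower end of the listed levels. Its 1.57 RPKM in the mock library rested on about 61.5 reads, with an approximate 95% exact Poisson interval of 1.21 to 2.02 RPKM, and ranked 10543 among 11201 protein-coding genes listed there. The log2 ratio, with the RHCG library set to 1 RPKM, was −0.36 and was not called; with genes at 0 set to 0 RPKM it was −1.36. Of 1441 genes between 1 and 2 RPKM in the mock library, 504 (35.0%) were at 0 in the RHCG library, and of 1399 genes in that range in the RHCG library 303 (21.7%) were at 0 in the mock library. Being listed in 1 library alone was therefore common at the level of CA11. The genes on the sides of CA11 were DBP, a circadian transcription factor, at 4.48 RPKM in the RHCG library and 7.94 RPKM in the mock library, and MAMSTR at 1.19 RPKM in both. Its 50 measured neighbours had a median log2 ratio of −0.18.

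CA9 and CA12 are membrane-bound carbonic anhydrases whose catalytic domain faces the outside of the cell, and both are known to be raised by low oxygen through the hypoxia-inducible factors. Their promoters are shown because the level of both genes, 0 in both libraries, can be set beside that of the factors and of other oxygen-regulated genes. The sequences are from RefSeq (GRCh38.p14), run 5′ to 3′ on the strand of the gene from 250 bases before to 50 bases after its start, and have capitals at the hypoxia response core (ACGTG or GCGTG on either strand) and at the AP-1 motif (TGANTCA).
CA9, chr9:35673678-35673977, + strand: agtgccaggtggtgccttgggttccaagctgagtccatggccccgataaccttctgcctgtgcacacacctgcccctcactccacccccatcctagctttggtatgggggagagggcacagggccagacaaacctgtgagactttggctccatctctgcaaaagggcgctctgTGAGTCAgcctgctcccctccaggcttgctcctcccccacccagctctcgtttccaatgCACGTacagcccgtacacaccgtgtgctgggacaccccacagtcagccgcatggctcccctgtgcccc
CA12, chr15:63381797-63382096, − strand: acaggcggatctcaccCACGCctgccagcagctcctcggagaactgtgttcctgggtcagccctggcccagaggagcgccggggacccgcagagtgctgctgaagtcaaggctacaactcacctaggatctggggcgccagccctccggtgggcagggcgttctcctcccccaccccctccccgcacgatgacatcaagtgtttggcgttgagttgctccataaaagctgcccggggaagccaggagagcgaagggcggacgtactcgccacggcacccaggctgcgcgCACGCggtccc
In the CA9 window the hypoxia core was found at position −18 from the start, in the reverse orientation CACGT, and an AP-1 motif TGAGTCA at −77. The CA12 window held the core CACGC at −234 and at 39 and no AP-1 motif. A match to the core alone does not show whether a site is in use, and binding was not measured here. Of 27305 promoter windows of the same length 48.4% hold the core, and 7.76% hold the AP-1 motif. Of the other members with a promoter sequence, CA5B had 7 such cores, and RHBG and RHAG none.

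Most genes of the oxygen-sensing pathway were measured while CA9 and CA12 were at 0. HIF1A was at 24.9 RPKM in the RHCG library and 22.5 RPKM in the mock library, ARNT at 18.5 RPKM in the RHCG library and 12.1 RPKM in the mock library. EPAS1, which encodes HIF-2 alpha, was at 65.0 RPKM in the RHCG library and 34.7 RPKM in the mock library. The list of 20 genes for this pathway includes CA9 and CA12 themselves, which with ADM were its 3 genes at 0 in both libraries. Of its 17 measured genes, 9 had a log2 ratio above 0 and 8 below, and 0 were called higher and 2 lower. P4HA2, a collagen prolyl hydroxylase, was at 16.7 RPKM in the RHCG library and 42.3 RPKM in the mock library, and BNIP3, a mitophagy receptor, at 15.6 RPKM in the RHCG library and 37.5 RPKM in the mock library. EGLN3 was at 4.69 RPKM in the RHCG library and 10.1 RPKM in the mock library. Its plain ratio, 0.46, is past 2-fold, and the 1 RPKM added to both values brings its log2 ratio to −0.97. VEGFA, the vascular growth factor, lay the other way, at 41.6 RPKM in the RHCG library and 21.04 RPKM in the mock library, short of the threshold. The list median was 0.00, beside −0.01 for all measured genes. Exons of ARHGEF39 on the opposite strand cover 38.5% of the exonic bases of CA9. ARHGEF39 was at 2.71 RPKM in the RHCG library and 3.87 RPKM in the mock library. Whether strand was used in counting is not given in the sources used here.

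Bicarbonate made or used by carbonic anhydrases crosses the membrane on carriers of families SLC4 and SLC26. Of 17 such genes and partners 7 were measured, with 0 called higher, 1 lower and a median log2 ratio of 0.12. SLC26A6, a chloride and bicarbonate exchanger, was lower, at 9.90 RPKM in the RHCG library and 23.4 RPKM in the mock library (log2 ratio −1.16). The ubiquitous anion exchanger SLC4A2 was at 30.7 RPKM in the RHCG library and 23.9 RPKM in the mock library. The sodium bicarbonate cotransporters were not called: SLC4A7 was at 8.33 RPKM in the RHCG library and 4.30 RPKM in the mock library (log2 ratio 0.82), and SLC4A5 at 4.42 RPKM in the RHCG library and 1.92 RPKM in the mock library (0.89). The plain ratio of SLC4A5, 2.30, is past 2-fold, and the 1 RPKM added to both values brings it under.

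Protons leave cells on sodium-proton exchangers and together with lactate. None of 14 measured genes of 23 was called in either direction, with 7 ratios above 0, 7 below and a median of −0.04. The most abundant, SLC16A3, had a log2 ratio of −0.61, and its chaperone BSG was at 180 RPKM in the RHCG library and 211 RPKM in the mock library. Of 25 genes of the vacuolar proton pump 20 were measured, and 1 was lower: ATP6V0D1, a subunit of its membrane sector, at 13.01 RPKM in the RHCG library and 28.95 RPKM in the mock library. The median of the pump genes was −0.13.

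**Figure D4:**
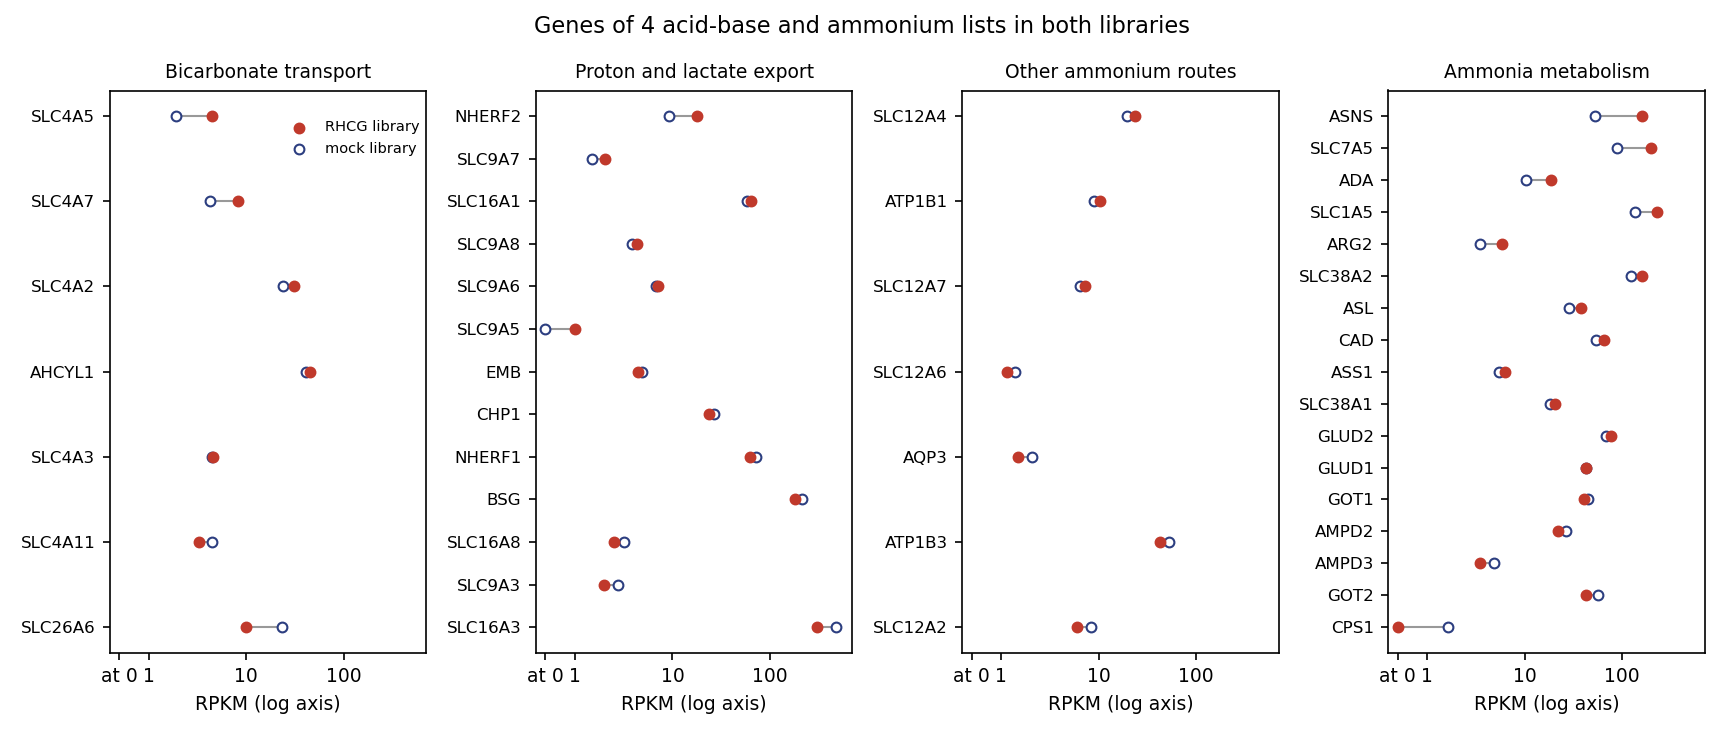
Levels in RPKM on log axes of measured genes of 4 lists, filled red points for the RHCG library and open blue points for the mock library, joined by a line and ordered by log2 ratio from top to bottom. ASNS and SLC7A5 near the top of the last panel and SLC26A6 at the bottom of the first are called by their log2 ratio with 1 RPKM added; no gene of the panels between them is.

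Ammonium also enters cells in place of potassium on other carriers, and ammonia through some aquaporins. Of 17 such genes 8 were measured and none was called, with a median of −0.20. ATP1B3, a beta subunit of the sodium pump, was at 42.5 RPKM in the RHCG library and 53.2 RPKM in the mock library.

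Of 25 genes that make, use or carry ammonia and its amino acid donors, 18 were measured, 3 were higher and 0 lower, and the median was 0.23. ASNS, asparagine synthetase, was at 161 RPKM in the RHCG library and 52.5 RPKM in the mock library, a 3.06-fold difference. SLC7A5, the large neutral amino acid transporter, was at 196 RPKM in the RHCG library and 87.3 RPKM in the mock library. GLUD1, glutamate dehydrogenase, was at 42.8 RPKM in the RHCG library and 42.3 RPKM in the mock library. GLUD2, a near-identical copy of GLUD1, was listed higher, at 77.1 RPKM in the RHCG library and 68.7 RPKM in the mock library. How reads were divided between GLUD1 and GLUD2 was not tested, so the level of either gene alone is uncertain. GLUL, glutamine synthetase, was at 0 in both libraries.

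Among genes that anchor transporters to the membrane skeleton or regulate them, 9 of 10 were measured, 0 were called and the median was 0.64. Ankyrin-G, encoded by ANK3 and known to hold RHBG at the basolateral membrane, was at 0 in the RHCG library and 1.38 RPKM in the mock library. EZR, ezrin, which links membrane proteins to actin, was the highest of the list, at 747 RPKM in the RHCG library and 375 RPKM in the mock library, a log2 ratio of 0.99 just under the threshold. SPTBN1, a spectrin, was at 105 RPKM in the RHCG library and 59.6 RPKM in the mock library. The median of this list was 0.06 when the median log2 ratio of the chromosomal neighbours of each gene, 25 on each side, was subtracted from its ratio.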

How the data were processed

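Total RNA of mock and RHCG transfectants was depleted of ribosomal RNA and made into barcoded Ion Torrent libraries, per the labels' protocols. The submitters' processing notes name hg19 and bedtools 2.25.0; no aligner, annotation or way of counting is named there. For each library the authors deposited a table headed RPKM, whose values are log2 of RPKM with none below 0. Values were unlogged and the rows of each Entrez gene summed (40448 rows, 40392 genes, 38047 matched to a RefSeq symbol). Genes listed in either library were measured.

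The read scale came from small RNA genes: RPKM times length lay within 0.01 reads of a whole number for 66 of 176 values in the RHCG library and 48 of 188 in the mock library, so whole counts were not recovered. Scales away from the chosen one gave at most 37 such values in the RHCG library and 23 in the mock library. Only a limited range of scales was tried, and depths outside that range were not tested. Read numbers use GENCODE release 29 exonic lengths and are approximate; other lengths used by the authors would change them.

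With 1 library per group, no test was run. Named genes were the members, other listed members of both families, up to 4 called genes of each list or else its 2 most abundant, the 4 highest genes listed in the RHCG library alone, and the 3 nearest neighbours of RHCG; other genes were chosen after their values were seen. Some genes of the lists are counted but not reported or drawn here. The members and lists were chosen with earlier results of these data known. The ratio rule was tested on simulated data. Software was matplotlib 3.10.9, scipy 1.17.1, pandas 2.3.3 and numpy 2.4.6 under Python 3.11.15.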

Additional observations from a re-analysis of the deposited data

How the results depend on the processing

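No paired analysis was possible because each group had a single library, and for the same reason none could be left out. Of 91 values under the alternatives 78 counted as the same and 13 as moved, and none of the called values turned its sign. Approximate counting error was the margin where a value had one, and the counts of members called had none. Some of the 78 could not move. A filter does not change the ratio of a gene that passes it, and taking the row with the highest total changed none of the values. The log2 value of RHCG, 7.69 with the mock library set to 1 RPKM, was 8.55 with 0.1 RPKM added and 8.69 with genes at 0 set to 0 RPKM, by construction. Setting genes at 0 to 0 RPKM put CA11 at −1.36, so that the members called lower became 1 in place of 0. With no filter, genes at 0 in both libraries enter with a ratio of 0 and the medians became 0.00 for bicarbonate transport, 0.00 for the vacuolar pump, 0.00 for other ammonium routes and 0.016 for ammonia metabolism. With a mean of at least 5 RPKM bicarbonate transport was at 0.23 and other ammonium routes at −0.047. With the shift of 50 chromosomal neighbours removed, bicarbonate transport was at 0.052 and the membrane anchors at 0.055. With 10 neighbours on each side the median around RHCG was −0.13. Among all genes, the 352 higher and 424 lower became 533 and 673 with 0.1 RPKM added, 686 and 1004 with genes at 0 set to 0 RPKM, and 1447 and 1481 with a ratio of 1.5.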
